A study of Homo sapiens with 6 samples.

Results

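The AP-1 transcription factor genes JUN, JUNB, JUND, FOS, FOSB, FOSL1, FOSL2 and ATF3 were examined in ATAC-seq peak lists of HCT116, a human cell line established from a colon cancer. Each of the 8 genes was taken with 20 kb added on both sides, in build hg19, and every peak that overlapped one of these windows by at least 1 bp was kept. The windows span 429 kb and held 195 of the 212831 peaks in the 6 lists. Merged where they overlapped, these peaks formed 43 sites, of 58926 regions in the whole genome.

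ATAC-seq inserts sequencing adapters into accessible DNA with a transposase, and a peak marks an interval where insertions pile up above the local background. The study compared 3 libraries labelled NuMA depletion with 3 labelled wild type, all from HCT116 cells, and asks, by its title, about the part of NuMA, a nucleoskeleton and spindle-pole protein, in local chromatin structure. The titles mark the depleted libraries AID and the wild-type ones NC, and neither abbreviation is explained. The labels do not describe how NuMA was depleted or for how long, and give no agent or dose. The protocol gives 2 different numbers of cells per sample, and does not say which was used for which library. The labels also do not say whether the replicates of a group were separate cultures, so the p-values below speak only of the spread among these 6 libraries, part or all of which may be technical. Markers of the labelled cell type were not analysed here.

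AP-1 is a family of dimeric transcription factors of the basic leucine zipper class. JUN, JUNB and JUND can pair with each other, or with FOS, FOSB, FOSL1 and FOSL2, which do not form stable homodimers, and ATF3 is a related stress-induced member that pairs with JUN proteins. Several of these genes, FOS, FOSB, JUN, JUNB and ATF3 among them, are immediate early genes that are transcribed within minutes of growth factor or stress signals. In epithelial cells AP-1 dimers bind many distal regulatory elements, and FOSL1 is known for its part in invasive tumour cells.

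The promoters of 4 members are shown because calls near their starts differed. The starts are known here only to 1 kb, so a site over a start is one that overlaps the position as given, and a shift within that rounding could move it off or bring a neighbour on. At JUN, a peak covered the position given in all 6 libraries. At FOS, a merged site called in all 6 spanned the position. Only the peaks of NuMA-depleted replicates 1 and 2 covered that FOS position themselves. The nearest JUNB site, called in all 6, ended 761 bp before its start. JUND had 2 weak sites at or next to its start, called in 4 libraries between them. The letters are the 250 bases before the annotated start in RefSeq, build GRCh38.p14, written 5′ to 3′ on the gene's own strand. Capitals mark a motif. TGACATCA is the type of AP-1 element known from the JUN promoter, TGACGTCA is the cyclic AMP response element, and TATAAA is a core promoter element. The classic AP-1 element TGANTCA was searched too and was found in none of the 8 promoter entries.
JUN, chr1:58784048-58784297, minus strand: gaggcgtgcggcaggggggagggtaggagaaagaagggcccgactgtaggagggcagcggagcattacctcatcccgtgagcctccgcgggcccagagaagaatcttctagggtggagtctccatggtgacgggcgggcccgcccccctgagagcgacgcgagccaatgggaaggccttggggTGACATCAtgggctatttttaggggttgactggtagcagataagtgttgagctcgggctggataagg
FOS, chr14:75278578-75278827, plus strand: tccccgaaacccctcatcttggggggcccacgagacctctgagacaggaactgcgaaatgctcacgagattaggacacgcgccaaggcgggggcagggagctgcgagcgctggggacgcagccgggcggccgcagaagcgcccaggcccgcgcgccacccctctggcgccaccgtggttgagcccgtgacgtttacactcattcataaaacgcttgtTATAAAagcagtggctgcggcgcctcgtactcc
JUNB, chr19:12791236-12791485, plus strand: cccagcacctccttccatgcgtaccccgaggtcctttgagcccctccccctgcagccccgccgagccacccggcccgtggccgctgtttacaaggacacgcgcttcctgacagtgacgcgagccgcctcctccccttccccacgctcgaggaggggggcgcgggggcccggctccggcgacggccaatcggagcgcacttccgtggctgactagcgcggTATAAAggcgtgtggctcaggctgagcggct
JUND, chr19:18281623-18281872, minus strand: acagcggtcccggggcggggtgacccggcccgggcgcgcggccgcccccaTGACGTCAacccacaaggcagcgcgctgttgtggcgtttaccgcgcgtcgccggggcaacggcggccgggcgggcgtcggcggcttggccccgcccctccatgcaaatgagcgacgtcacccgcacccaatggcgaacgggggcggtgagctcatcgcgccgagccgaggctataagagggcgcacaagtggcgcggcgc

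RefSeq entries matched 7 of the 8 genes, with 2 entries for ATF3 and none for FOSL1. The JUN promoter held TGACATCA at bases -67 to -60 from the start, and the first ATF3 entry held the same letters at -123 to -116. TGACATCA occurs in 2.37% of the 35116 promoter entries of the same length. JUND held TGACGTCA at -200 to -193, as do 1.65% of all entries. TATAAA stood at -31 to -26 in JUNB, -33 to -28 in FOS and -30 to -25 in FOSB, and at -230 to -225 in the second ATF3 entry, and occurs in 10.7% of entries. The AP-1 element TGANTCA occurs in 6.57% of them. Both strands were searched, no 2 of these motifs overlapped in a member, and TGACATCA and TATAAA were added to the search after the data had been seen. The FOSL2 promoter held none of the 4 motifs. G and C made up 62.0% in JUN, 64.8% in FOS, 65.6% in FOSB, 69.6% in FOSL2, 70.8% in JUNB and 74.8% in JUND. Over all entries the median was 58% and the upper quartile 68%, which only FOSL2, JUNB and JUND passed. ATF3 lay below the median, with 49.2% and 44.8% in its entries. The peaks are in hg19 coordinates and the promoters in GRCh38.p14, and neither was converted to the other, so a match of letters is not placed inside a peak here.

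The lists held 38466, 45892 and 21783 peaks in NuMA-depleted replicates 1, 2 and 3 and 35502, 38685 and 32503 in wild-type replicates 1, 2 and 3. Values below follow this order of replicates, and where values stand on both sides of the word against, the NuMA-depleted libraries come first. The files give no read totals. Relative depth (1 being the mean over the 6 libraries) was estimated from 2 extreme values of each list. These were its narrowest peak and the smallest background recovered from folds and p-values. The estimate ran from 1.07 to 1.21 after NuMA depletion and from 0.762 to 0.975 in wild type. NuMA-depleted replicate 3 had the shortest list at an estimate of 1.11. It also had the lowest median pileup at summits in the AP-1 windows, 26 fragments against 27 to 41 in the others. Whether low depth shortened its list was not tested, and counts are given with and without it. Absence from a list means that the caller's threshold was not reached, not that the chromatin was closed. The fold over local background and the −log10 q-value of a peak are the authors' values, each on the scale of its own list, and serve as descriptions only.

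Peaks were called in the AP-1 windows in all 6 libraries, but unevenly by gene, from 8 over the 6 lists at JUN to 38 at FOSL1. Together the windows held 38, 37 and 22 peaks after NuMA depletion and 30, 38 and 30 in wild type. NuMA-depleted replicate 3 was lowest, and the other libraries of the 2 groups overlapped. The mean was 32.3 ± 8.96 after depletion and 32.7 ± 4.62 in wild type (SD, n = 3 each, p = 1 in a two-sided exact permutation test). This test cannot pass 0.05 with 3 libraries a group, since the smallest p it allows is 0.1. The peaks covered 22.0, 27.4 and 10.2 kb after depletion and 17.4, 20.8 and 17.2 kb in wild type, a mean of 19.9 ± 8.79 kb (SD, n = 3) against 18.5 ± 2.07 kb (SD, n = 3), with p = 0.9 in the same exact test. When NuMA-depleted replicate 3 was left out, the difference in peaks turned from -0.333 to 4.83 and that in length rose from 1.40 to 6.23 kb, and without NuMA-depleted replicate 2 the length turned to -2.37 kb.

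As a share of each library's own list, peaks in the AP-1 windows made up 0.0988%, 0.0806% and 0.101% after depletion and 0.0845%, 0.0982% and 0.0923% in wild type. NuMA-depleted replicate 3 was the lowest by number and the highest by share. The group means were 0.0935% ± 0.0112 and 0.0917% ± 0.00688 (SD, n = 3 each, exact permutation p = 0.8, two-sided). The windows held from 51.3 to 88.6 peaks per Mb, against 7.18 to 15.1 per Mb over the span of the called chromosomes. Windows around other genes were not counted, so whether this density is particular to AP-1 genes was not tested. Median fold in the windows lay between 5.24 and 5.77, below the list's own median in each of the 6 libraries (6.08 to 7.38). By contrast, 43.3% to 62.2% of the windows' peaks had a −log10 q above the list's median.

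**Figure D1:**
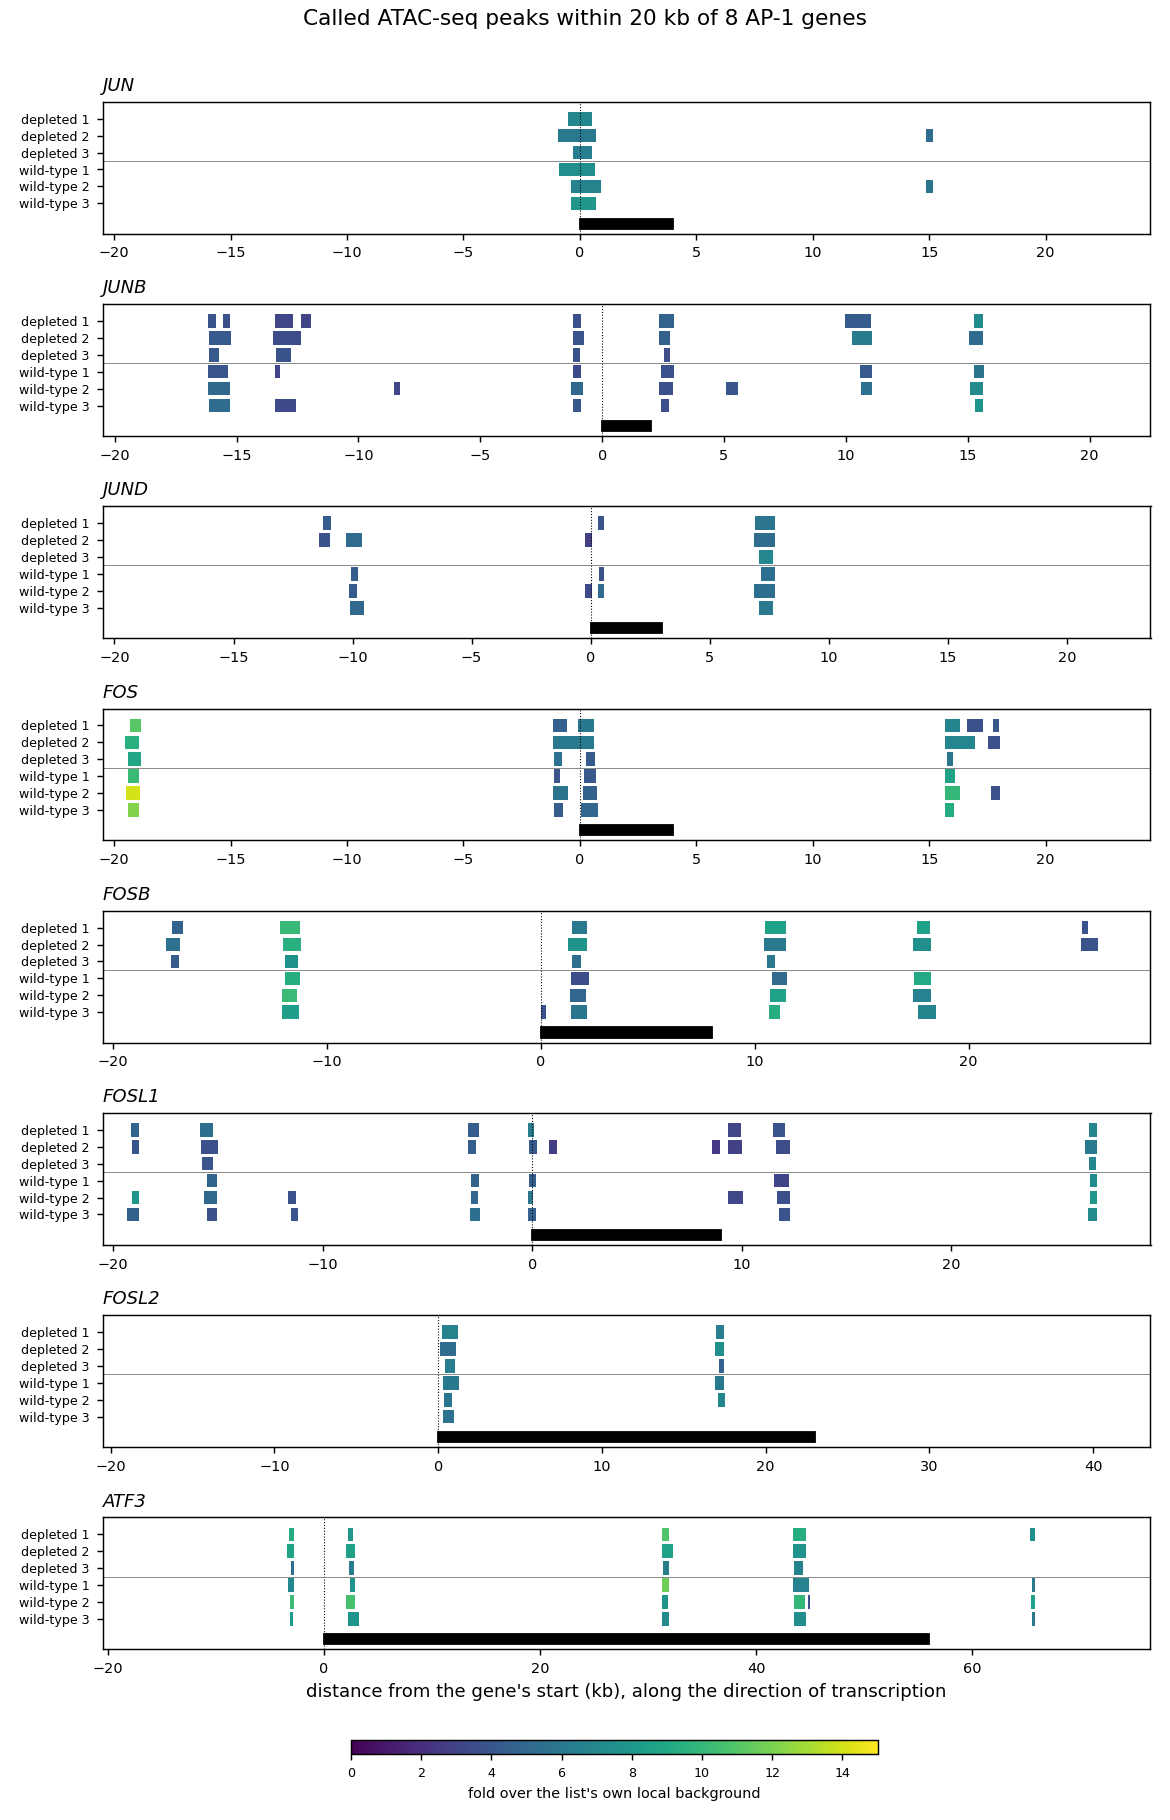
Called peaks in the 8 windows, 1 panel per gene, by distance from the gene's start in kb along the direction of transcription (x axis) and by library (rows, NuMA-depleted above and wild-type below the line). Each coloured bar is 1 peak with its fold over the list's own background, the black bar is the gene interval, and the start of JUN, as given to 1 kb, is covered by a bar in all 6 rows while that of JUNB is covered in none.

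Most AP-1 sites were called in several libraries. Of the 43 sites, 18 were called in all 6 libraries, where the share of all regions called so is 28.9%, and 5 in a single library, where it is 25.1%. A further 5 sites were missing from NuMA-depleted replicate 3 alone (8.69% of all regions), so 23 sites were common to the other 5 libraries (37.6% of all regions). The remaining sites numbered 5 in 2 libraries, 4 in 3, 4 in 4 and 2 in a different set of 5. The mean fold of a site had a median of 6.99 for sites in all 6 libraries, 5.08 for those in 5, 5.20 for those in 4 and 3.16 for those in 1. A call has to pass a threshold in each list, so a link between calls and strength is built in. It did not hold site by site. A FOSB site called in 5 libraries had a mean fold of 7.73, and a JUNB site called in all 6 had 3.98. All 5 sites called once had a −log10 q of at most 7.77 and a pileup of 15 to 43 fragments at the summit. Among the strongest 21783 peaks of each list the gap to all regions closed for sites called in all 6 libraries, with 10 of 29 (34.5%) against 33.9%, while 2 of 29 were called once (6.90%) against 23.0%. Under a minimum −log10 q of 5 the gap remained, with 17 of 37 sites called in all 6 libraries (45.9%) against 29.0%. In the full lists, 2 of the 5 sites called once were in NuMA-depleted replicate 2, which alone called 9.55% of all regions. Wild-type replicate 2 had 2 (4.71% of all regions) and wild-type replicate 3 had 1 (2.32%).

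**Figure D2:**
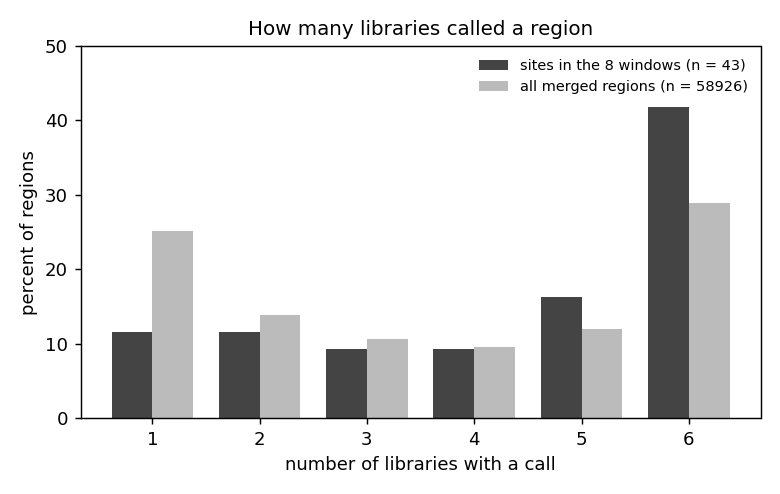
Percent of regions (y axis) by the number of libraries that called them (x axis), for the 43 sites in the AP-1 windows (dark bars) and all 58926 merged regions (light bars). Sites called in all 6 libraries make up 41.9% of the AP-1 sites and 28.9% of all regions, and sites called once 11.6% and 25.1%. At equal numbers of peaks per list, however, the share called in all 6 was 34.5% against 33.9%. Under a minimum −log10 q of 5 it was 45.9% against 29.0%.

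A single AP-1 site had a peak in all 3 NuMA-depleted lists and none in wild type, a pattern of 0.625% of all regions. It lies upstream of FOSB, on chromosome 19 at 45953488 to 45954256, with its near edge 16744 bp before the start. Its folds were 4.64, 5.66 and 4.35 in NuMA-depleted replicates 1, 2 and 3, its −log10 q 6.47, 11.8 and 4.28, and its widths 517, 644 and 335 bp. The call rested on 18, 27 and 13 fragments at the summits, and the peak of replicate 3 was among the weakest of its list, at percentile 10.6 by q. Under a minimum −log10 q of 5 the site was called in 2 libraries. Among the strongest 21783 peaks of each list it was called in NuMA-depleted replicate 3 alone. That list holds 21783 peaks and so was not cut, and its peak was the weakest of the site's calls. The peaks of replicates 1 and 2, at ranks 31493 and 26469 by q, were cut. No site (0 of 43) was called in every wild-type and no NuMA-depleted library, where 0.592% of all regions are. When 2 of 3 libraries sufficed, 3 sites were called in NuMA-depleted libraries alone (5.04% of all regions) and 1 in wild type alone (2.85%). The first 3 were the FOSB site, a JUND site and a second FOSB site, the last 2 seen only in NuMA-depleted replicates 1 and 2, and the 1 wild-type site lies near FOSL1.

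The start of JUN, which encodes the founding member of the family, was called in every library and was nearly the only site in its window. The site on chromosome 1 at 59249089 to 59250923 spans the start and was 1049, 1614 and 839 against 1558, 1297 and 1042 bp wide. Its folds were 6.94, 6.07 and 6.37 after NuMA depletion, and 7.49, 6.73 and 7.95 in wild type. The −log10 q was 25.1, 27.9 and 15.7 against 23.2, 18.4 and 25.3, which placed the peak between percentiles 71.9 and 92.5 of its list. NuMA-depleted replicate 2 had the widest and NuMA-depleted replicate 3 the narrowest peak, and the groups overlapped in fold and in width. Mean fold was 6.46 ± 0.439 after depletion and 7.39 ± 0.617 in wild type (SD, n = 3 each). Summits lay 52 to 257 bp inside the gene interval. The other JUN site, at 59234849 to 59235157, lay past the gene's end and was a weak call in replicate 2 of each group, with folds of 5.32 and 5.72, −log10 q of 5.96 and 5.59 and widths of 309 and 301 bp. No protein-coding gene lies within 20 kb of JUN in RefSeq (GRCh38.p14).

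JUNB, an immediate early gene that often restrains proliferation when paired in place of JUN, had 8 sites and no peak over its start as given. The nearest, on chromosome 19 at 12900737 to 12901239, ended 761 bp before that position. It was called in all 6 libraries, with folds of 3.74, 3.98 and 3.78 after NuMA depletion, and 3.32, 5.04 and 4.10 in wild type, −log10 q of 9.28, 14.5 and 6.61 against 5.81, 17.4 and 9.56 and widths of 341, 455 and 290 against 347, 485 and 316 bp. Wild-type replicate 2 was highest and wild-type replicate 1 lowest in fold and −log10 q, with the 3 NuMA-depleted libraries between them in fold. The site just past the gene's end, at 12904322 to 12904960, was also called in all 6 libraries. Its folds were 4.69, 4.55 and 3.57 after NuMA depletion, and 3.67, 3.75 and 3.65 in wild type, its −log10 q 15.2, 19.3 and 5.39 against 7.27, 9.51 and 7.44 and its widths 614, 459 and 283 against 560, 574 and 332 bp. The 3 wild-type folds lay within the range of the NuMA-depleted ones. Among the strongest 21783 peaks of each list this site was called in the 3 NuMA-depleted and no wild-type library, and it is the 1 such site in the windows (1 of 29 sites under that setting, where 1.26% of all regions are). That setting leaves the list of NuMA-depleted replicate 3 whole. Its peak was kept, at rank 17477 by q, with a fold of 3.57 and a −log10 q of 5.39. The wild-type peaks, all higher in fold and −log10 q, were cut at ranks 24458, 24687 and 23205.

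Upstream of JUNB, the site at 12885831 to 12886763 was called in all 6 libraries, as 2 peaks in NuMA-depleted replicate 1 and as 1 in the others. It covered 616, 876 and 403 against 804, 908 and 888 bp, and its highest folds were 3.84, 4.22 and 4.14 after NuMA depletion, and 4.04, 5.000 and 5.27 in wild type, with −log10 q of 6.64, 12.3 and 5.46 against 6.52, 11.99 and 13.3. Covered length overlapped between the groups only through NuMA-depleted replicate 2. The neighbouring site at 12888511 to 12890075 was called in every library except wild-type replicate 2, which is the pattern of 290 regions in the genome. Its folds were low, 3.15, 3.51 and 3.81 in NuMA-depleted replicates 1, 2 and 3, and 2.95 and 3.34 in wild-type replicates 1 and 3, and its −log10 q was 4.06, 8.43 and 4.56 against 2.83 and 4.63 with widths of 1134, 1149 and 618 against 205 and 861 bp. Wild-type replicate 2 alone had peaks at 12893452 to 12893699 (248 bp, fold 3.16, −log10 q 2.94) and at 12907095 to 12907586 (492 bp, fold 3.99, −log10 q 7.77).

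Downstream, JUNB's window held its highest mean fold, at 12917072 to 12917657, 15072 bp past the start. It was called in 5 libraries, all but NuMA-depleted replicate 3. Folds were 7.15 and 5.26 in NuMA-depleted replicates 1 and 2, and 5.69, 7.13 and 7.77 in wild-type replicates 1, 2 and 3, with −log10 q of 17.7 and 11.6 against 11.1, 16.7 and 17.8 and widths of 356 and 569 against 404, 534 and 341 bp. A wider site at 12911975 to 12913082 was called in replicates 1 and 2 of both groups, with folds of 4.32 and 6.26 in NuMA-depleted replicates 1 and 2, and 4.12 and 5.61 in wild-type replicates 1 and 2, −log10 q of 7.26 and 17.97 against 5.92 and 11.04 and widths of 1059 and 804 against 516 and 449 bp. The protein-coding genes HOOK2, PRDX2, THSD8 and RNASEH2A neighbour JUNB within 20 kb in RefSeq, so these sites were not assigned to JUNB alone.

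JUND, the most evenly expressed member of the JUN group in many tissues, had 2 weak sites at or next to its start, 311 bp or less from the position given. Which of them lies over the start cannot be told at a precision of 1 kb. The one that overlaps the position, on chromosome 19 at 18392932 to 18393251, was called in replicate 2 of each group, with folds of 2.76 and 3.39, −log10 q of 3.38 and 4.20 and widths of 285 and 309 bp. Both peaks ranked low, at percentiles 1.68 and 6.60 of their lists, and neither passed a −log10 q of 5. The one inside the gene, at 18392428 to 18392689, a peak was called in wild-type replicates 1 and 2 and NuMA-depleted replicate 1, with folds of 3.82, 5.10 and 3.98, −log10 q of 5.53, 10.9 and 6.22 and widths of 232, 262 and 236 bp. Together these sites were called in 4 libraries, and neither was called in NuMA-depleted replicate 3 or wild-type replicate 3. IQCN neighbours JUND within 20 kb in RefSeq.

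The strongest JUND site lay past the gene's end, at 18385250 to 18386128, and was called in all 6 libraries. Its folds were 5.86, 5.23 and 6.95 after NuMA depletion, and 5.35, 5.37 and 6.15 in wild type, its −log10 q 14.2, 17.1 and 16.2 against 10.01, 10.2 and 12.8 and its widths 858, 877 and 622 against 581, 859 and 596 bp. NuMA-depleted replicate 3 had the highest fold here, although its list was the shortest, and the groups overlapped. Upstream, at 18402529 to 18403283, a site was called in NuMA-depleted replicate 2 and all wild-type libraries, with folds of 5.14 in NuMA-depleted replicate 2, and 4.34, 4.24 and 5.07 in wild-type replicates 1, 2 and 3, −log10 q of 9.92 against 4.998, 4.90 and 7.15 and widths of 674 against 310, 360 and 577 bp. The next site, at 18403917 to 18404429, was called in NuMA-depleted replicates 1 and 2 only, with folds of 4.32 and 3.87, −log10 q of 5.59 and 5.39 and widths of 321 and 480 bp. This last pattern is that of 2322 regions, 3.94% of all.

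FOS, the classic immediate early gene, carried the highest fold of all AP-1 sites 18833 bp upstream of its start. On chromosome 14 at 75725484 to 75726167, folds were 11.1, 9.54 and 8.83 after NuMA depletion, and 10.1, 14.01 and 12.2 in wild type and −log10 q 44.00, 43.02 and 25.5 against 33.9, 56.8 and 44.4. These peaks lay between percentiles 96.0 and 99.8 of their lists and rested on 65, 70 and 44 against 53, 73 and 62 fragments at the summit. Widths were 497, 579 and 570 against 461, 585 and 474 bp. Wild-type replicate 2 was highest and NuMA-depleted replicate 3 lowest, and the groups overlapped in fold, with 9.83 ± 1.18 after depletion and 12.1 ± 1.94 in wild type (SD, n = 3 each). The summits of the 6 peaks lay within 75725875 to 75725912.

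Around the FOS start, peaks merged into 1 site at 75743840 to 75745783 in all 6 libraries. NuMA-depleted replicate 2 had a single peak of 1768 bp with a fold of 6.09 and a −log10 q of 24.0, and the other 5 libraries had 2 peaks each. The peak before the start had its summit at 75743960 to 75743962 in all 5, with folds of 4.62 and 5.65 in replicates 1 and 3 after depletion and 3.93, 5.70 and 4.34 in wild-type replicates 1, 2 and 3. Its −log10 q was 10.96 and 13.9, and 7.02, 15.3 and 8.60. The peak at the start, whose exact overlap with it cannot be told at a precision of 1 kb, had folds of 6.05 and 4.23 in the same NuMA-depleted libraries and 4.08, 4.54 and 4.96 in wild-type, with −log10 q of 19.4 and 7.49, and 7.92, 9.81 and 12.1. Covered lengths of the whole site were 1263, 1768 and 777 against 755, 1240 and 1138 bp. Highest folds were 5.93 ± 0.243 after depletion and 4.91 ± 0.811 in wild type (SD, n = 3 each), and wild-type replicate 2 lay within the NuMA-depleted range.

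Downstream of FOS, the site at 75760673 to 75762315 separated the groups by fold. Folds were 6.84, 6.91 and 5.88 after NuMA depletion, and 8.66, 9.95 and 9.15 in wild type, or 6.54 ± 0.573 against 9.25 ± 0.650 (SD, n = 3 each), and every wild-type value was above every NuMA-depleted one. The −log10 q was 20.5, 31.3 and 11.5 against 26.6, 35.5 and 27.7, and these overlapped, as did the pileups at the summits, 42, 65 and 27 against 46, 56 and 46 fragments. Of the 18 AP-1 sites called in all 6 libraries, 2 had folds that were lower in all NuMA-depleted libraries, where 8.40% of all such regions are, and 0 had folds that were higher in all of them (1.76% of all). The other was the FOSL1 site at 65641048 to 65641603. Folds are relative to each list's own background, and the NuMA-depleted libraries had the 3 highest estimates of relative depth, whose part in this was not tested. Covered length of the FOS site ran the other way in 2 libraries, with 1308, 1282 and 283 against 403, 625 and 384 bp. NuMA-depleted replicate 1 had a second peak there (677 bp, fold 3.74, −log10 q 5.92), and replicate 2 had a single broad one. A last FOS site at 75762539 to 75763018 was called in NuMA-depleted replicates 1 and 2 and wild-type replicate 2, with folds of 4.06, 3.69 and 3.75, −log10 q of 7.20, 8.83 and 5.19 and widths of 289, 480 and 361 bp.

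FOSB, another immediate early gene of the FOS group, had 7 sites, of which 3 were called in all 6 libraries. The site that overlaps its start as given to 1 kb was called only in wild-type replicate 3, at 45970980 to 45971242, with a fold of 3.73, a −log10 q of 4.86 and a width of 263 bp. Inside the gene, 1243 bp past the start, the site at 45972243 to 45973270 was called in all 6 libraries. Folds there were 5.98, 7.68 and 5.51 after NuMA depletion, and 3.57, 4.94 and 5.88 in wild type, with −log10 q of 14.5, 30.8 and 10.4 against 4.30, 9.23 and 13.7 and widths of 676, 900 and 426 against 851, 773 and 727 bp. NuMA-depleted replicate 2 was highest and wild-type replicate 1 lowest, and the groups overlapped through wild-type replicate 3 (6.39 ± 1.14 against 4.80 ± 1.16, SD, n = 3 each). The summit was at the same base, 45972626, in 4 libraries, the 3 NuMA-depleted ones and wild-type replicate 3.

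The highest FOSB folds lay upstream at 45958815 to 45959760, 11240 bp before the start. They were 10.1, 9.54 and 7.62 after NuMA depletion, and 9.28, 10.2 and 8.34 in wild type, with −log10 q of 35.4, 42.5 and 16.7 against 27.01, 27.6 and 20.4 and widths of 917, 843 and 636 against 697, 720 and 812 bp. NuMA-depleted replicate 3 was lowest, and mean folds were 9.08 ± 1.30 and 9.26 ± 0.908 (SD, n = 3 each), a difference smaller than the spread. Past the gene, the site at 45981444 to 45982489 was called in all 6 libraries, with folds of 8.52, 6.13 and 6.05 after NuMA depletion, and 5.12, 8.63 and 9.32 in wild type, −log10 q of 19.1, 14.8 and 9.25 against 6.92, 17.8 and 17.2 and widths of 983, 1005 and 399 against 696, 764 and 514 bp. Its highest and lowest folds were both from wild-type libraries. The site at 45988374 to 45989456 was called in all but NuMA-depleted replicate 3, with folds of 8.64 and 7.50 in NuMA-depleted replicates 1 and 2, and 9.08, 6.63 and 6.81 in wild-type replicates 1, 2 and 3, −log10 q of 19.8 and 19.7 against 20.4, 10.3 and 10.5 and widths of 647 and 879 against 799, 842 and 847 bp. Weak peaks at 45996265 to 45997049 were called in NuMA-depleted replicates 1 and 2 only, with folds of 3.72 and 3.85, −log10 q of 4.01 and 4.88 and widths of 275 and 785 bp. ERCC1 and RTN2 neighbour FOSB within 20 kb in RefSeq.

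FOSL1, which encodes FRA1, had the most sites, 10, and few calls in NuMA-depleted replicate 3. That library held 2 peaks in the window, against 7 and 9 in NuMA-depleted replicates 1 and 2 and 5, 8 and 7 in the wild-type libraries. It also called fewer regions over the whole genome, 36.4% of all regions against 54.3% to 77.6% in the other libraries. The site over the start, on chromosome 11 at 65667781 to 65668198, was called in 5 libraries and not in NuMA-depleted replicate 3. Its folds were 6.33 and 4.16 in NuMA-depleted replicates 1 and 2, and 4.35, 5.93 and 4.62 in wild-type replicates 1, 2 and 3, its −log10 q 23.5 and 14.8 against 10.03, 18.2 and 10.2 and its widths 269 and 365 against 333, 237 and 381 bp, and the groups overlapped. The site was still called in these 5 libraries among the strongest 21783 peaks of each list. Its pattern is that of 5122 regions, and 2 more FOSL1 sites shared it. One, at 65670506 to 65671052, lay 2506 bp upstream and had folds of 4.45 and 4.40 in NuMA-depleted replicates 1 and 2, and 4.72, 4.98 and 5.33 in wild-type replicates 1, 2 and 3, −log10 q of 10.8 and 14.99 against 11.1, 11.6 and 13.1 and widths of 502 and 383 against 418, 339 and 444 bp. The other, at 65655692 to 65656522, lay past the gene and had folds of 3.93 and 3.48 in NuMA-depleted replicates 1 and 2, and 3.06, 3.75 and 3.85 in wild-type replicates 1, 2 and 3, −log10 q of 11.7 and 12.8 against 4.65, 8.55 and 9.26 and widths of 607 and 658 against 724, 616 and 517 bp.

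The FOSL1 sites present in all 6 libraries were distal. At 65641048 to 65641603, past the gene, folds were 6.95, 6.14 and 6.97 after NuMA depletion, and 7.20, 7.91 and 7.13 in wild type, or 6.69 ± 0.473 against 7.41 ± 0.435 (SD, n = 3 each). The groups did not overlap, but the gap from 6.97 (NuMA-depleted replicate 3) to 7.13 (wild-type replicate 3) was smaller than either SD. The −log10 q was 14.6, 14.8 and 12.8 against 15.8, 18.8 and 13.5 and widths 394, 556 and 298 against 328, 338 and 449 bp, and both overlapped. At 65683013 to 65683837, upstream, folds were 5.50, 3.67 and 3.96 after NuMA depletion, and 4.83, 5.06 and 3.77 in wild type, −log10 q 19.1, 14.3 and 7.07 against 13.3, 16.2 and 8.30 and widths 609, 805 and 518 against 489, 613 and 455 bp. NuMA-depleted replicate 2 had the lowest fold and the widest peak there.

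The remaining FOSL1 sites were called in 1 to 4 libraries. At 65686737 to 65687328, folds were 4.86 and 4.03 in NuMA-depleted replicates 1 and 2, and 7.87 and 4.55 in wild-type replicates 2 and 3, with −log10 q of 13.6 and 14.5 against 33.1 and 10.9 and widths of 390 and 353 against 376 and 582 bp, and wild-type replicate 2 was highest. The site called in wild-type replicates 2 and 3 alone, at 65679195 to 65679656, had folds of 3.71 and 3.97, −log10 q of 5.35 and 6.35 and widths of 411 and 290 bp, a pattern of 434 regions. Past the gene, 65657960 to 65658679 was called in NuMA-depleted replicates 1 and 2 and wild-type replicate 2, with folds of 3.12, 2.92 and 3.15, −log10 q of 6.82, 8.81 and 5.35 and widths of 613, 677 and 710 bp. Both sites inside the gene were called in NuMA-depleted replicate 2 alone, at 65659042 to 65659423 (382 bp, fold 2.39, −log10 q 4.93) and 65666801 to 65667192 (392 bp, fold 2.64, −log10 q 4.81). EFEMP2, CTSW, FIBP, CCDC85B, C11orf68 and DRAP1 neighbour FOSL1 in RefSeq, the most neighbours of any member.

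FOSL2, which encodes FRA2, had 2 sites, both inside the gene, and none in the flanks. The site by the start, on chromosome 2 at 28615131 to 28616258, was called in all 6 libraries, with folds of 6.68, 5.25 and 6.33 after NuMA depletion, and 6.09, 5.82 and 5.64 in wild type. The −log10 q was 18.7, 17.9 and 14.8 against 14.6, 14.5 and 12.1, and widths were 953, 939 and 591 against 985, 470 and 706 bp. It began 131 bp past the start, which is within the rounding of that position. Mean fold was 6.09 ± 0.744 after NuMA depletion and 5.85 ± 0.226 in wild type (SD, n = 3 each), and the wild-type values lay within the NuMA-depleted range. The intragenic site at 28631917 to 28632529 was called in every library except wild-type replicate 3, a pattern of 815 regions. Its folds were 6.29, 7.44 and 4.57 in NuMA-depleted replicates 1, 2 and 3, and 6.07 and 6.98 in wild-type replicates 1 and 2, its −log10 q 10.5, 17.3 and 5.43 against 9.96 and 11.7 and its widths 481, 518 and 265 against 533 and 462 bp, with NuMA-depleted replicate 3 lowest in all 3 values.

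ATF3, a stress-response gene known to be transcribed from more than 1 promoter, had the largest share of sites common to all libraries. It was 4 of 5, followed by 3 of 4 at FOS, where 28.9% of all regions are called so. No peak lay within 1 kb of the outer start of the ATF3 interval, and the nearest sites stood 2021 bp past it and 2770 bp before it. The broadest ATF3 site lay deep inside the interval, 43366 bp past that start, at 212781366 to 212782977 on chromosome 1. It covered 1224, 1197 and 811 against 1521, 1191 and 1089 bp, with folds of 9.28, 7.69 and 6.59 after NuMA depletion, and 6.63, 9.92 and 7.30 in wild type and −log10 q of 29.5, 28.4 and 15.4 against 15.4, 32.7 and 17.8. Wild-type replicate 1 had the widest peak and NuMA-depleted replicate 3 the narrowest, and wild-type replicate 2 added a second, weak peak (191 bp, fold 3.41, −log10 q 3.83). Group means of fold were 7.85 ± 1.35 and 7.95 ± 1.74 (SD, n = 3 each), a difference within the spread.

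The other ATF3 sites called in all libraries had folds in a like range. At 212769274 to 212770265 folds were 10.9, 8.65 and 6.40 after NuMA depletion, and 11.7, 7.86 and 7.13 in wild type, with −log10 q of 27.9, 24.9 and 9.47 against 26.1, 12.7 and 11.4 and widths of 610, 992 and 531 against 588, 545 and 584 bp. Replicate 1 of each group was highest in it, so the spread ran within groups. At 212740021 to 212741197 folds were 7.998, 8.55 and 6.20 after NuMA depletion, and 7.72, 10.6 and 7.85 in wild type, −log10 q 13.4, 18.5 and 7.36 against 10.7, 17.9 and 10.1 and widths 505, 835 and 386 against 452, 803 and 956 bp. Upstream, at 212734586 to 212735230, folds were 9.16, 8.75 and 5.25 after NuMA depletion, and 6.88, 10.3 and 8.18 in wild type, −log10 q 19.3, 24.6 and 5.64 against 10.2, 20.7 and 12.6 and widths 418, 614 and 320 against 530, 348 and 300 bp. At both of these NuMA-depleted replicate 3 had the lowest and wild-type replicate 2 the highest fold. The last site, at 212803362 to 212803817, was called in NuMA-depleted replicate 1 and all wild-type libraries, a pattern of 260 regions, with folds of 7.43 in NuMA-depleted replicate 1, and 6.11, 8.45 and 6.13 in wild-type replicates 1, 2 and 3, −log10 q of 12.04 against 7.84, 13.2 and 7.54 and widths of 446 against 291, 391 and 288 bp. GARIN4 neighbours ATF3 in RefSeq.

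**Figure D3:**
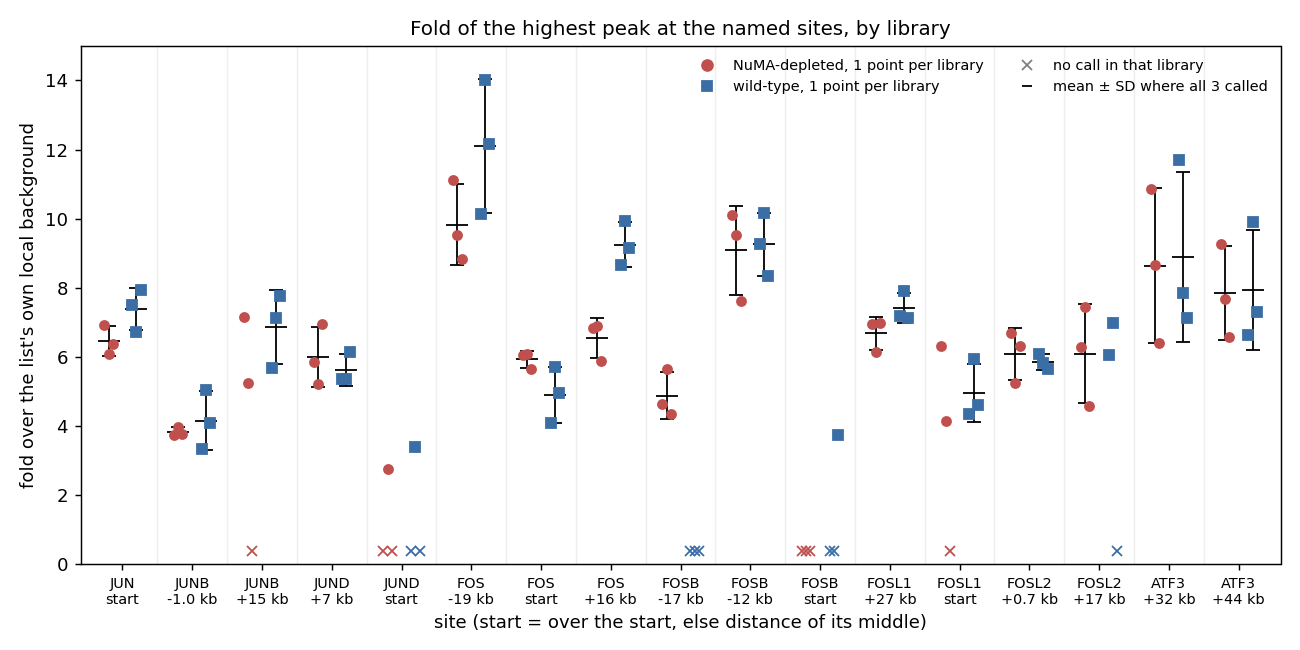
Fold over the list's own background (y axis) of the highest peak at 17 named sites (x axis, by gene, marked start where the site lies over the start and otherwise by the distance of its middle from it), 1 point per library, circles for NuMA-depleted and squares for wild-type, with mean ± SD where all 3 libraries of a group called the site and crosses where a library had no call. The FOS site at +16 kb has all 3 circles (5.88 to 6.91) below all 3 squares (8.66 to 9.95), and the outermost upstream FOSB site has circles only.

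Peak width was the measure that could be tested across the genome. For the 17009 regions called in all 6 libraries, log2 of the covered length was centred on each library's median and compared with limma. Across all of them 3 regions were wider in NuMA-depleted libraries at an adjusted p of 0.05 or less (0.0176%) and 0 were narrower (0.00%). The 3 became 0 without centring and 0 when any 1 NuMA-depleted library was left out, and 5, 4 and 5 without wild-type replicates 1, 2 and 3. None of the 18 AP-1 sites tested passed, and their smallest adjusted p by limma was 0.631. At an unadjusted p under 0.05 there was 1 AP-1 site, where 7.31% of all regions tested are. That site was the one upstream of JUNB at 12885831 to 12886763, with a mean of 632 ± 237 bp after depletion and 867 ± 55.2 bp in wild type (SD, n = 3 each), a log2 difference of -0.51 (SE 0.19), and an unadjusted p of 0.0223 by limma. It was narrower than every wild-type value in 2 of 3 NuMA-depleted libraries.

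The largest difference in the other direction was at the FOS site at 75760673 to 75762315, where the log2 difference was 0.78 (SE 0.42) with an adjusted p of 0.741 by limma. At the JUN start it was -0.18 (SE 0.19), at the FOS start 0.25 (SE 0.22), at the FOSL2 start 0.24 (SE 0.27) and at the broad ATF3 site -0.23 (SE 0.18), with adjusted p from 0.852 to 0.928 by limma. Of the 18 sites, 11 had a positive difference, where 50.3% of all regions tested did. The median of the 18 was 0.14, against 0.00 over all regions tested. Without NuMA-depleted replicate 3, 10 of 23 sites were positive and the median was -0.05. Over all regions tested in that setting 44.7% were positive and the median was -0.04, close to the values of the sites. The raw widths of the groups overlapped at all 18 sites, while 4.09% of all regions tested were wider and 3.22% narrower in every NuMA-depleted library than in any wild-type one.

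**Figure D4:**
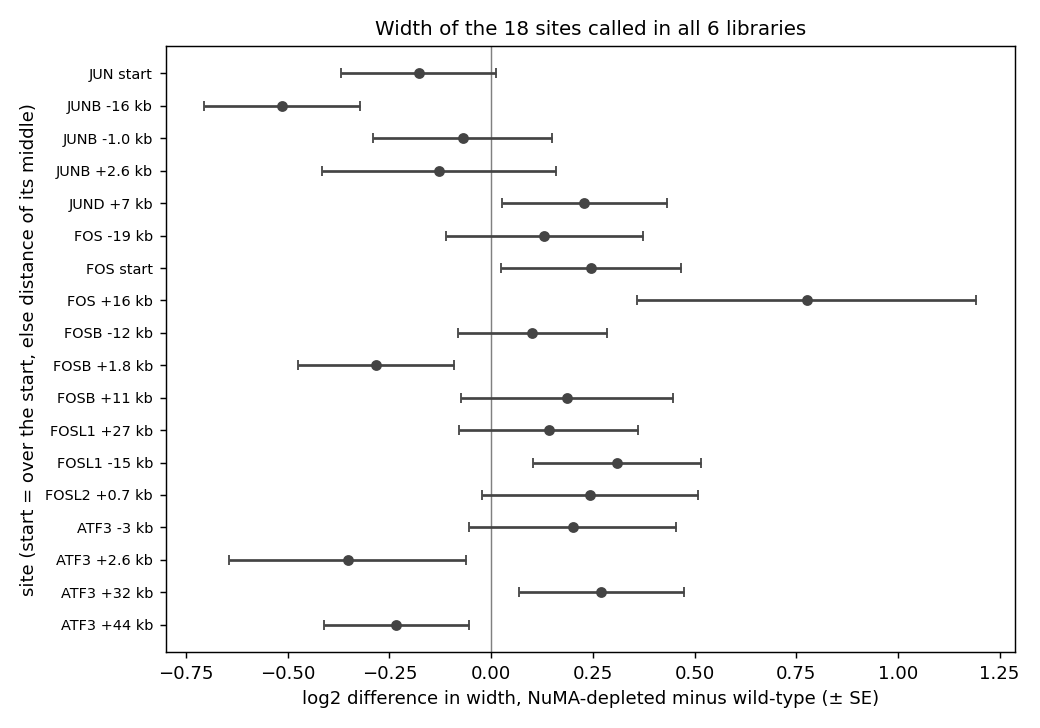
Difference in log2 width between NuMA-depleted and wild-type libraries (x axis, centred on each library's median, bars ± SE from limma, n = 3 per group) for the 18 AP-1 sites called in all 6 libraries (y axis, named as start where the site lies over the start and otherwise by the distance of its middle from it). Values run from -0.51 upstream of JUNB to 0.78 downstream of FOS, and none passed an adjusted p of 0.05.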

How the data were processed

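ATAC-seq libraries of HCT116 cells numbered 6, 3 labelled NuMA depletion and 3 labelled wild type, grouped by their genotype labels. The submitters' processing notes name build hg19 and the tools Picard, Trim Galore and Bowtie2 (version 2.4.1). Names inside the deposited peak lists record a macs2 folder and carry the unexplained word combine. Not given in the sources used here are the caller's version and settings and any shift of reads for the transposase. Each list is deposited under 1 sample, and whether it pools more than 1 library or run of that sample is not stated. The deposited files give, for each peak, a linear fold (ratio) over local background, a p-value and a q-value as −log10, and a score, which was not used. The lists reach a q of 0.01.

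The members and lists were chosen with earlier results of these data known. Gene intervals were given to 1 kb in hg19. Peaks overlapping an interval with 20 kb added by at least 1 bp were kept, and peaks of the 6 lists were merged where they overlapped. By the rule for naming, each gene's site over or within 1 kb of its start, sites called in 1 group only, sites past the width threshold and the site of highest mean fold in each window are named. The other sites, which the rule gave by number and range, are listed by library as well and were added after their values were seen. Only sites called in all 6 libraries were tested by width. Fragment pileups were recovered from fold and p-value, allowing a mismatch of 0.01 in −log10 p, and 99.986% to 99.994% of peaks gave a whole number. Relative depth is the smallest background so recovered, divided by the narrowest peak width of the list and scaled to the mean of the 6 libraries. Read totals are unknown, so no counting interval is given. Window totals were compared by a two-sided exact permutation test. Log2 width, centred on each library's median, was compared with limma (version 3.58.1, R 4.3.3) with Benjamini-Hochberg adjustment over 17009 regions, and the script was tested on simulated data. The alternatives tried were equal numbers of peaks per list, a minimum −log10 q of 5, flanks of 10 and 50 kb and calls in 2 of 3 libraries. Others were 500 bp windows on summits in place of peaks, leaving out each library, no centring and the replicate number as a block. Promoters came from RefSeq (GRCh38.p14). Cell type markers and other pathway genes were not analysed here, since no hg19 annotation was used.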

Additional observations from a re-analysis of the deposited data

How the results depend on the processing

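None of the differences in window totals could pass 0.05 in the exact test, so their stability was not tested. The difference in peak number (NuMA-depleted minus wild-type) was 0 with a −log10 q of at least 5, 1 at equal numbers of peaks and 0.333 with 50 kb flanks, and ran from -3.17 to 4.83 with 1 library left out. The difference in length under peaks was -0.566 kb with 10 kb flanks and ran from -2.37 to 6.23 kb with 1 library left out. The difference in share was -0.00724 percentage points with 10 kb flanks and ran from -0.00197 to 0.00822. Sites called in NuMA-depleted libraries alone numbered 0 with a −log10 q of at least 5 (0.620% of all regions) and 0 with 10 kb flanks (0.625%). They numbered 3 when 2 of 3 libraries sufficed (5.04%) and 1 to 3 with 1 library left out (0.803% to 4.59%). Sites called in wild-type libraries alone numbered 1 when 2 of 3 sufficed (2.85% of all regions) and 0 to 1 with 1 library left out (0.632% to 2.39%). Sites in all libraries numbered 10 of 29 at equal numbers (34.5% against 33.9% of all regions, so the excess of the full lists was gone under that setting). They numbered 17 of 37 with a −log10 q of at least 5 (45.9% against 29.0%). They numbered 30 of 74 with 50 kb flanks (28.9% of all regions) and 18 of 46 with 500 bp windows on summits (27.1%). With such windows, 1 site was called in NuMA-depleted libraries alone (0.626% of all regions) and 0 in wild-type libraries alone (0.676%). With 1 library left out, sites in all libraries numbered 18 to 23, where 30.5% to 37.8% of all regions are. With the replicate number as a block, the 3 exact tests gave p = 1, 1 and 1, and 1 region of all tested by limma was called by width in place of 3. That number was 0 without centring and ran from 0 to 5 with 1 library left out. In the deviations of log2 width from their group's mean, same-numbered libraries correlated at 0.00256, -0.00152 and -0.0114. This measure cannot tell whether such libraries shared a culture, day or batch, and the labels do not say. No AP-1 site was called by width under any alternative run.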
